A study of Homo sapiens with 8 samples.

Results

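The 10 genes PLK1, AURKA, CDK1, CCNA2, CCNB1, CCNB2, CDC25B, CDC25C, WEE1 and FOXM1, which encode the kinases, cyclins, phosphatases and transcription factor that carry a cell into mitosis, were followed across a breast cancer line with and without COH29. They were chosen by symbol among the 18417 genes that the array's annotation pairs with exactly 1 gene per probe set, with the probe set of highest mean over the 8 arrays kept for each gene. All 10 were measured, and no filter on low values was applied. HCC1937 is a breast carcinoma line whose BRCA1 is truncated and whose DNA repair is deficient. HCC1937+BRCA1 carries, in addition, an exogenous wild-type BRCA1. COH29 inhibits ribonucleotide reductase, the enzyme that makes deoxynucleotides. The 4 groups, each of 2 Affymetrix arrays, were HCC1937 without COH29, HCC1937 with COH29 at 10 µM for 24 h, HCC1937+BRCA1 without it and HCC1937+BRCA1 with it at the same dose and time. The medium of all groups was RPMI with serum at 10%. The vehicle and hours of the control arrays, the BRCA1 vector and its promoter, and whether the BRCA1 line is 1 clone were not given in the sources used here.

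In dividing cells CDK1, bound to cyclin A or B, is the kinase whose activity drives entry into mitosis. WEE1 holds it inactive by phosphorylation, and the CDC25 phosphatases remove that phosphate. Aurora A and PLK1 tip this balance towards entry, and FOXM1 is a transcription factor that binds with the MuvB complex to the promoters of many of these genes. Their transcripts rise from S phase to G2 and fall after mitosis, so in RNA from whole cultures fewer cells in G2 and mitosis cannot be told apart from less transcript per cell.

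Over all genes, the 2 arrays of each group had Pearson correlations of 0.996 to 0.9974, and every array was nearest to its own partner. For the 10 genes, the 2 arrays of a group differed by at most 0.38 on the log2 scale. Whether the arrays of a group stand for separate cultures is not stated, and the p-values here measure the spread between these samples alone, and that may be technical. The probe set of BRCA1, the gene that names the lines, read 10.45 and 10.64 in HCC1937 control, 10.40 and 10.46 in HCC1937 with COH29, 10.50 and 10.43 in HCC1937+BRCA1 control, and 10.25 and 10.07 with COH29 (log2 intensity). The control arrays of the lines overlapped, and the difference of -0.08 ± 0.10 (SE) did not pass the test (limma adjusted p = 0.62), so this probe set does not check the line labels.

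The measured basal and general epithelial markers lay above the median gene on all arrays, and a few markers of other cell types were above the median gene in some groups. All 8 measured markers of the basal and general epithelial list, out of 11 listed, had means over the 8 arrays from 8.91 (KRT14) to 13.22 (KRT8), above the median gene at 7.92. Of the 5 measured luminal markers, out of 6 listed, 4 also lay above that gene, with ESR1 at 8.04, GATA3 at 9.61, FOXA1 at 10.09 and XBP1 at 11.36, and PGR lay at 4.99. The endothelial markers VWF (5.88) and KDR (5.48), the leukocyte markers PTPRC (4.10) and CD3E (5.29), and the fibroblast markers DCN (3.93) and LUM (3.34) lay under it. The fibroblast marker COL1A1 had a mean of 7.95. The endothelial markers PECAM1 and CDH5, and the leukocyte marker CD14, were above it in some groups. PECAM1 averaged 9.30 and 7.35 in HCC1937 without and with COH29, and 8.11 and 6.63 in HCC1937+BRCA1. CDH5 averaged 8.75 and 7.48, and 7.41 and 6.91, in the same order. CD14 averaged 10.61 and 9.48, and 6.84 and 6.72.

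COH29 lowered 9 of the 10 genes in each line and raised 0. The median change was -0.62 on the log2 scale in HCC1937, where the median of all 18417 genes was 0.04, and -0.73 in HCC1937+BRCA1, where it was 0.04 as well. The gene that did not pass was CDK1 in HCC1937 and CDC25C in HCC1937+BRCA1. The call rule was an adjusted p (Benjamini-Hochberg) under 0.05 in the limma fit over all genes. By that rule 12.5% of all genes were lower with COH29 in HCC1937, and 20.1% in HCC1937+BRCA1. For all 10 genes both treated arrays lay below both control arrays in each line, which held for 28.6% of all genes in HCC1937 and 33.0% in HCC1937+BRCA1. The sizes differed widely among the genes, from PLK1 at 29.8% of its control level in HCC1937 to CDC25B at 78.6%. PLK1, AURKA and CCNB1 were the 3 genes that fell by at least 1 on the log2 scale, and they did so in both lines. No gene rose at an unadjusted p under 0.05 (0 of 10 in each line). At the array level the mean of the 10 centred profiles was 0.56 on both HCC1937 control arrays, -0.33 and -0.23 with COH29, 0.34 and 0.28 in HCC1937+BRCA1 control, and -0.59 on both of its COH29 arrays. Without HCC1937 COH29 replicate 1 or control replicate 2, 6 genes passed in HCC1937, and without control replicate 1, 7 did. Without either HCC1937+BRCA1 COH29 array 10 passed. Of the markers above, 2 of 4 endothelial genes fell with COH29 in both lines, PECAM1 (-1.95 and -1.48) and CDH5 (-1.28 and -0.50). Among the 5 luminal genes FOXA1 fell (-0.73 and -0.76) and XBP1 rose (0.67 and 1.24), and in HCC1937+BRCA1 alone ESR1 fell (-0.57) and GATA3 rose (0.32). Of the epithelial list CDH1 rose in both lines (0.26 and 0.35), EGFR fell in HCC1937 (-0.27) and KRT14 rose in HCC1937+BRCA1 (0.35). CD14 fell in HCC1937 (-1.13, limma adjusted p = 0.000295) and was at -0.12 in HCC1937+BRCA1 (0.448). ITGAM fell in HCC1937 (-0.37) and DCN rose in HCC1937+BRCA1 (0.25). No other measured marker passed in either line. The part of the marker genes in the result was not tested.

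**Figure D1:**
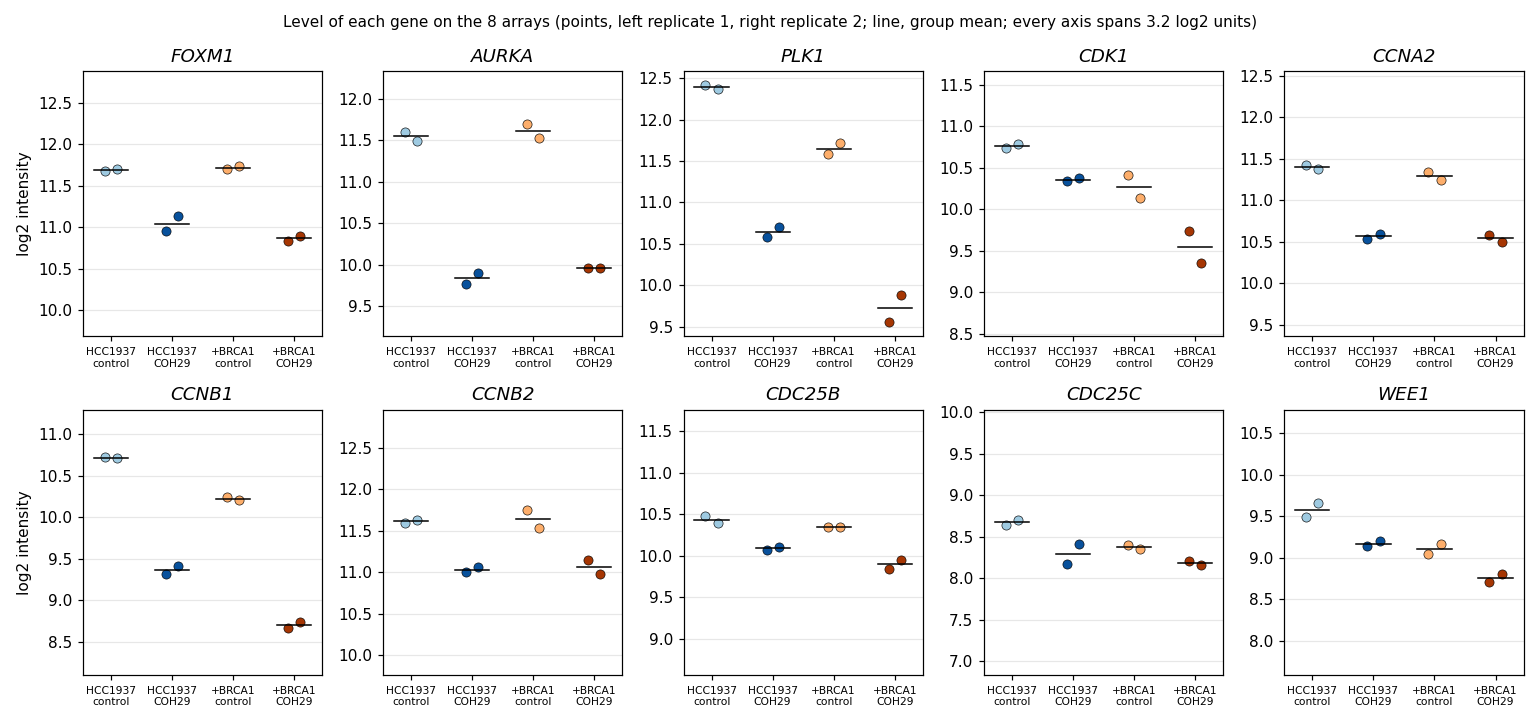
Log2 intensity (y axis) of each of the 10 genes on the 8 arrays, by line and treatment (x axis), with 1 point per array and a line at the group mean; every y axis spans the same range. The COH29 arrays lie below the control arrays of their line in all 10 panels, and PLK1, CDK1, CCNB1 and WEE1 also lie lower in HCC1937+BRCA1 than in HCC1937.

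**Figure D2:**
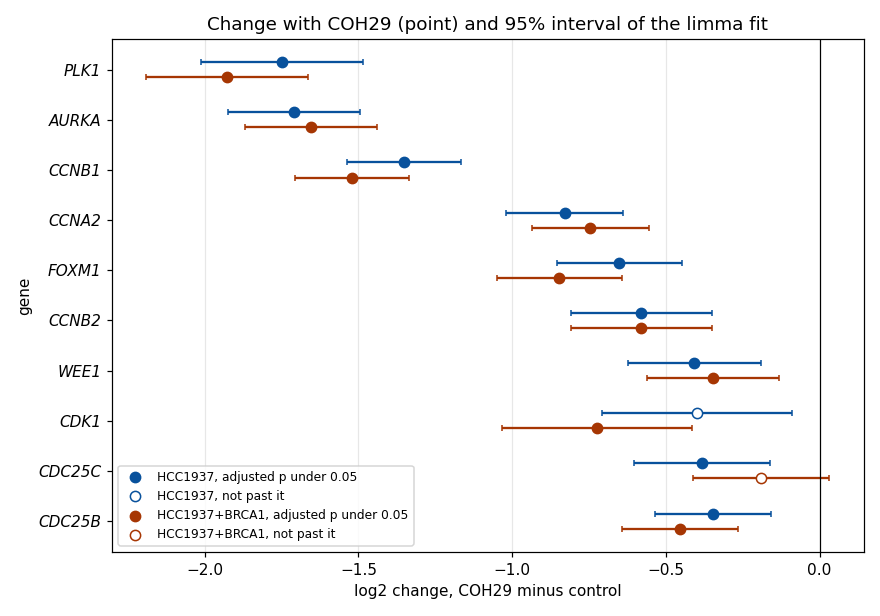
Log2 change with COH29 (x axis) of the 10 genes (y axis) in HCC1937 (blue) and HCC1937+BRCA1 (brown), with bars for the 95% interval of the limma fit and open points for changes not past an adjusted p of 0.05. PLK1, AURKA and CCNB1 form the left end in both lines, at -1.75, -1.71 and -1.35 in HCC1937 and -1.93, -1.66 and -1.52 in HCC1937+BRCA1.

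Since these genes fell together, the promoter letters of those in RefSeq's promoter table (GRCh38.p14) are shown, to let the elements known for G2 and mitosis genes be seen in place. The table held 14 windows of 300 bases for 7 of the 10 genes, and AURKA, FOXM1 and WEE1 were not matched. Windows were searched on both strands for TTTGAA, the core of the cell cycle genes homology region that MuvB binds, for its variants CTTGAA and TTCGAA, and for CCAAT, the box bound by NF-Y. None of these strings contains another, and overlapping matches were each counted. The motifs were chosen with these promoters in view. The stretches from 150 bases before the start site up to it are chr16:23678739-23678888 (plus strand) for PLK1, chr15:59104996-59105145 (plus) for CCNB2, chr5:69167000-69167149 (plus) for CCNB1 and chr4:121823884-121824033 (minus) for CCNA2. For CDK1, CDC25C and CDC25B, which have several annotated starts, 30 bases are given, at chr10:60778397-60778426 (plus), chr5:138331817-138331846 (minus) and chr20:3796260-3796289 (plus). Each runs 5′ to 3′ along the gene, and capitals mark the matches on either strand, where ATTGG is CCAAT read on the other strand.
PLK1: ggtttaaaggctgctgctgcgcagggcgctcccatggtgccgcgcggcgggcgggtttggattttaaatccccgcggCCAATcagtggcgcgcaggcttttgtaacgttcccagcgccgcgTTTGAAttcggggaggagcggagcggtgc
CCNB2: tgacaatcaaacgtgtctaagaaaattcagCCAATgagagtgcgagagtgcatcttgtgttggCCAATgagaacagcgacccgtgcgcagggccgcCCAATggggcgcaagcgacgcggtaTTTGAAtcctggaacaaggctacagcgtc
CCNB1: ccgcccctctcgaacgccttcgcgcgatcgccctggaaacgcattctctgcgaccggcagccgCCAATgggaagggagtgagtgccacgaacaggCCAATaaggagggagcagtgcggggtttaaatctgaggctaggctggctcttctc
CCNA2: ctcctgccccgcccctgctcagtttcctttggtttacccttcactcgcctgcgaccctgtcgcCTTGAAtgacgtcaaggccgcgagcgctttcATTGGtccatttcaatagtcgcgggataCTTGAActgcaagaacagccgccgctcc
CDK1: ctgATTGGctgcTTTGAAagtctacgggct
CDC25C: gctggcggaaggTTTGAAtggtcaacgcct
CDC25B: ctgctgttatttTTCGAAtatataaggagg
TTTGAA was in a window of 4 of the 7 genes (PLK1, CCNB2, CDK1 and CDC25C), and 18.2% of the 27305 genes in the table have it in a window. Counted by window, 6 of the 14 held it, and 15.2% of all 35116 windows do. Windows of 1 gene can overlap, and the CDC25C matches at 44 and -30 of 2 windows are the same letters. The 7 genes also have more windows per gene than the table as a whole, which gives a match more places in the counts by gene. It began 29 bases before the start in both PLK1 and CCNB2. In CDK1 it began at -161 in 1 window, and at -69, -13 and, on the other strand, 10 in the other. The 30 bases printed for CDK1 hold the match at -69, and those around a nearer match would run past the start. CCNA2 had CTTGAA at -87 and -28 (13.4% of genes and 11.2% of windows hold that string), and CDC25B had TTCGAA at -38 (1.82% and 1.45%). CCNB1 had none of the 3 strings in its window. CCAAT, read on either strand, was in a window of all 7 genes and of 39.7% of all genes, or in 10 of the 14 windows and 34.6% of all windows. At least 2 copies were in a window of 4 genes, CCNB1, CCNB2, CDK1 and CDC25C, and of 12.9% of all genes, or in 4 of the 14 windows and 10.8% of all windows. CCNB2 carried 3 of its 4 copies at -120, -87 and -54. PLK1, which fell most, had 1 copy, at -73. A match says only that the letters are there.

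FOXM1, the transcription factor, read 11.68 and 11.70 (log2 intensity) in HCC1937 control and 10.95 and 11.13 with COH29. The HCC1937+BRCA1 arrays read 11.70 and 11.73 in control and 10.84 and 10.90 with COH29. The control arrays of the lines overlapped, and all 4 treated arrays lay below all 4 control arrays. The change of FOXM1 in HCC1937 was -0.65 (SE 0.09, n = 2 arrays per group), to 63.7% of control (limma adjusted p = 0.00103). Its change in HCC1937+BRCA1 was -0.85 (SE 0.09), to 55.6% (limma adjusted p = 0.000144).

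AURKA, which encodes the kinase that activates PLK1 at centrosomes, read 11.61 and 11.49 in HCC1937 control and 9.77 and 9.90 with COH29. The HCC1937+BRCA1 arrays read 11.70 and 11.53, and 9.96 on both COH29 arrays. Its levels fell into 2 pairs of groups, control and treated, and within neither pair did the lines differ past the test (limma adjusted p = 0.659 and 0.381). The change was -1.71 (SE 0.10) in HCC1937 and -1.66 (SE 0.10) in HCC1937+BRCA1, to 30.6% and 31.8% of control (limma adjusted p = 1.86e-05 and 7.9e-06). In HCC1937, 13 of the 18417 genes had a lower change than AURKA.

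PLK1, the kinase that promotes CDC25 activity and WEE1 destruction, had the largest fall of the 10 genes in both lines. It read 12.41 and 12.37 in HCC1937 control, 10.58 and 10.71 with COH29, 11.58 and 11.72 in HCC1937+BRCA1 control, and 9.56 and 9.88 with COH29. No 2 groups overlapped, and each step of the order HCC1937 control, HCC1937+BRCA1 control, HCC1937 with COH29, HCC1937+BRCA1 with COH29 passed the test. The change was -1.75 (SE 0.12) in HCC1937 and -1.93 (SE 0.12) in HCC1937+BRCA1 (limma adjusted p = 3.77e-05 and 9.7e-06), with 11 and 15 genes of the array lower still. COH29 thus left PLK1 at 29.8% and 26.3% of its control level.

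CDK1 encodes the kinase at the centre of the switch. It read 10.73 and 10.78 in HCC1937 control and 10.34 and 10.38 with COH29, a change of -0.40 (SE 0.14) that did not pass the test (limma adjusted p = 0.0672, 95% interval from -0.71 to -0.09). In HCC1937+BRCA1 it read 10.41 and 10.13 in control and 9.74 and 9.36 with COH29, and the change was -0.72 (SE 0.14), to 60.6% of control (limma adjusted p = 0.00335). The 2 arrays of each HCC1937+BRCA1 group lay 0.28 and 0.38 apart, wider than the HCC1937 arrays, which lay within 0.05 of each other. The HCC1937 change passed with only the 4 HCC1937 arrays (adjusted p = 0.0202), without either HCC1937+BRCA1 COH29 array (0.0341), without dim genes (0.0374) and with a trended and robust fit (0.0179). Of 17 alternatives run, 11 left the HCC1937 change of CDK1 not past the test. Without moderation of the variances the adjusted p in HCC1937+BRCA1 was 0.0511.

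Among the cyclins, CCNA2 encodes cyclin A2, which partners CDK2 in S phase and CDK1 in G2. It read 11.42 and 11.37 in HCC1937 control, 10.54 and 10.60 with COH29, 11.34 and 11.24 in HCC1937+BRCA1 control, and 10.59 and 10.50 with COH29. The treated arrays of both lines overlapped, and the change was -0.83 (SE 0.08) and -0.75 (SE 0.08), to 56.3% and 59.6% of control (limma adjusted p = 0.000234 and 0.000205). CCNB1, the gene of cyclin B1, CDK1's main mitotic partner, read 10.73 and 10.71 in HCC1937 control and 9.32 and 9.42 with COH29. The HCC1937+BRCA1 arrays read 10.25 and 10.21, and 8.67 and 8.74 with COH29. Like PLK1 it had 4 separate levels, in the same order, with each step past the test. The change was -1.35 (SE 0.08) and -1.52 (SE 0.08), to 39.2% and 34.8% of control (limma adjusted p = 2.74e-05 and 5.77e-06). CCNB2, the gene of cyclin B2, found mainly at the Golgi, read 11.59 and 11.63 in HCC1937 control, 11.00 and 11.06 with COH29, 11.75 and 11.53 in HCC1937+BRCA1 control, and 11.14 and 10.97 with COH29. Its change was -0.58 (SE 0.10) in each line, to 66.9% of control (limma adjusted p = 0.00358 and 0.00219). The 95% intervals of the CCNB1 and CCNB2 changes did not overlap in either line. They ran from -1.54 to -1.17 and from -0.81 to -0.35 in HCC1937, and from -1.71 to -1.34 and from -0.81 to -0.35 in HCC1937+BRCA1.

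The CDC25 phosphatase genes had small changes. CDC25B, whose product starts CDK1 activation in the cytoplasm, read 10.48 and 10.39 in HCC1937 control and 10.07 and 10.10 with COH29. In HCC1937+BRCA1 it read 10.35 on both control arrays and 9.84 and 9.95 with COH29. The changes were -0.35 (SE 0.08) and -0.45 (SE 0.08), to 78.6% and 73.1% of control (limma adjusted p = 0.0167 and 0.00293). The HCC1937 call ended without COH29 replicate 1 (adjusted p = 0.0733), control replicate 1 (0.116) or control replicate 2 (0.054) of that line. CDC25C, whose product amplifies CDK1 activity at mitotic onset, read 8.64 and 8.71 in HCC1937 control and 8.17 and 8.41 with COH29. Its change in HCC1937 was -0.38 (SE 0.10, limma adjusted p = 0.0222). That call ended without COH29 replicate 1 (0.128), control replicate 1 (0.076) or control replicate 2 (0.127), with only the 4 arrays compared (0.0516) and without moderation (0.0732). In HCC1937+BRCA1 CDC25C read 8.41 and 8.35 in control and 8.21 and 8.16 with COH29, a change of -0.19 (SE 0.10) with a 95% interval from -0.41 to 0.03 (limma adjusted p = 0.165).

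WEE1, the kinase gene that opposes the CDC25 genes, changed in the same direction as they did. On its probe set of highest mean it read 9.49 and 9.67 in HCC1937 control, 9.14 and 9.20 with COH29, 9.05 and 9.16 in HCC1937+BRCA1 control, and 8.71 and 8.80 with COH29. HCC1937 with COH29 and HCC1937+BRCA1 control overlapped. The changes were -0.41 (SE 0.10) and -0.35 (SE 0.10), to 75.4% and 78.6% of control (limma adjusted p = 0.0145 and 0.0208). WEE1 was the single gene of the 10 with several probe sets, and the calls rested on that choice. Fitted over all 19460 probe sets with 1 gene, the other 2 probe sets changed by -0.14 (adjusted p = 0.344) and -0.28 (0.144) in HCC1937, and by -0.12 (0.363) and -0.18 (0.281) in HCC1937+BRCA1. All 3 thus had a change below 0 in each line, and 1 of 3 passed. In HCC1937 the call ended without COH29 replicate 1 (adjusted p = 0.0749), control replicate 2 (0.12) or moderation (0.0543). In HCC1937+BRCA1 it ended without COH29 replicate 1 (0.101), control replicate 2 (0.105) or moderation (0.0563), with cyclic loess (-0.24, adjusted p 0.0732), and with the mean of the 3 probe sets (-0.22, 0.079).

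**Figure D3:**
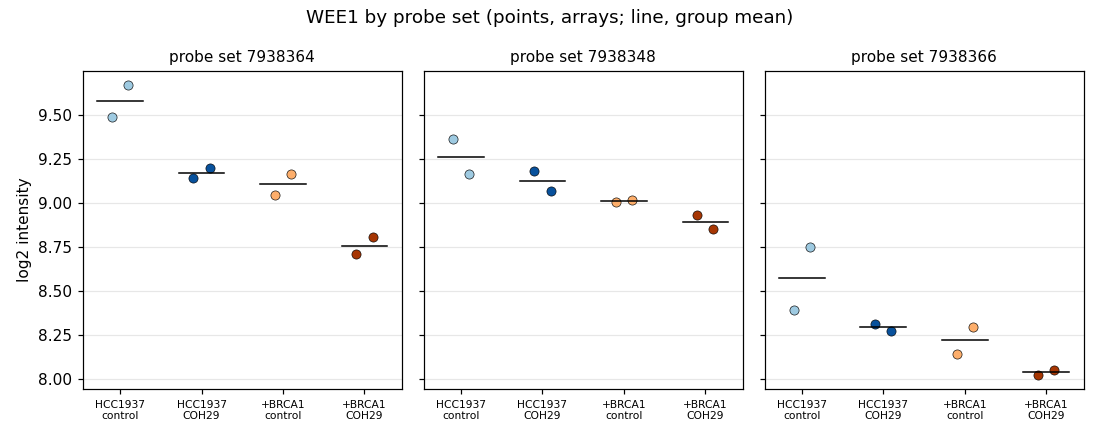
Log2 intensity (y axis) of the 3 WEE1 probe sets on the 8 arrays by group (x axis), with 1 point per array and a line at each group mean. The group means with COH29 lie below those of control in each line on all 3 probe sets, by 0.41, 0.14 and 0.28 in HCC1937, from left to right.

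The series was designed to compare COH29 between the lines. For the 10 genes the difference of the COH29 effects, HCC1937+BRCA1 minus HCC1937, ran from -0.32 (CDK1) to 0.19 (CDC25C) with a median of -0.05. By the limma interaction test 0 of the 10 passed, 0 had an unadjusted p under 0.05, and 0.956% of all genes passed. The 95% intervals, each for a single gene and not adjusted over genes, reflect the spread between these arrays alone. For AURKA the interval ran from -0.25 to 0.36, for CCNB2 from -0.32 to 0.32 and for CCNB1 from -0.43 to 0.09. For PLK1 it ran from -0.55 to 0.20, for FOXM1 from -0.48 to 0.09 and for CDK1, the widest, from -0.76 to 0.11. CDK1 passed in HCC1937+BRCA1 and not in HCC1937, and CDC25C the reverse, but neither difference passed its own test (limma adjusted p = 0.541 and 0.627).

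The lines also differed in these genes without the drug. In control cultures 5 of the 10 genes were lower in HCC1937+BRCA1 than in HCC1937 and 0 were higher, where 14.8% of all genes were lower and 16.4% higher by the same rule. Both HCC1937+BRCA1 arrays lay below both HCC1937 arrays for 7 of the 10, as for 31.8% of all genes. PLK1 was at 59.7% of its HCC1937 level (-0.74, SE 0.12, limma adjusted p = 0.00115). CCNB1 was at 71.1%, a difference of -0.49 (SE 0.08, adjusted p = 0.00161). WEE1 was at 72.1% (-0.47, adjusted p = 0.00459), CDK1 at 71.5% (-0.48, 0.0241) and CDC25C at 81.4% (-0.30, 0.047). FOXM1, CCNB2 and AURKA overlapped between the control groups, with differences of 0.02, 0.03 and 0.07 and 95% intervals within -0.20 and 0.29. CCNA2 and CDC25B were at -0.11 and -0.09, not past the test (adjusted p = 0.411 and 0.522). The 2 weakest calls were lost when single arrays were left out. CDC25C lost its call without any 1 of 6 arrays, at adjusted p from 0.0631 to 0.205. These were the 4 control arrays and the 2 HCC1937+BRCA1 COH29 arrays. CDK1 lost it without HCC1937 control replicate 1 (0.0829) or 2 (0.113) or HCC1937+BRCA1 control replicate 2 (0.153). The 5 genes became 3 in each of the last 3 cases. Some marker genes also differed between the control groups. KRT5 (-1.70), PECAM1 (-1.19), CDH5 (-1.34) and CD14 (-3.77) were among those lower in HCC1937+BRCA1, and EGFR was higher (0.51). The other measured basal and general epithelial markers, and the endothelial markers VWF and KDR, did not pass. The part of marker genes in these differences was not tested. On the other 2 WEE1 probe sets the differences were -0.25 and -0.35 (adjusted p = 0.0784 and 0.0571).

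Under COH29, 4 genes stayed apart between the lines, each lower in HCC1937+BRCA1, where 17.4% of all genes were lower and 14.2% higher. Arrays of the lines did not overlap for 6 lower genes (32.0% of all genes) and for AURKA, which was higher (28.6%). PLK1 was at 52.8% of its HCC1937 level (-0.92, SE 0.12, limma adjusted p = 0.000339) and CDK1 at 57.1% (-0.81, SE 0.14, 0.00176). CCNB1 was at 63.2% (-0.66, SE 0.08, 0.000294) and WEE1 at 75.1% (-0.41, SE 0.10, 0.00914). WEE1 did not pass without HCC1937 COH29 replicate 2 (0.0502) or HCC1937+BRCA1 COH29 replicate 1 (0.0597), nor on its other probe sets (-0.23 and -0.26, adjusted p = 0.0993 and 0.156). FOXM1 (-0.17), AURKA (0.13), CDC25B (-0.19), CDC25C (-0.10), CCNA2 (-0.02) and CCNB2 (0.03) did not pass. The control and treated comparisons use different arrays, and PLK1, CCNB1, CDK1 and WEE1 were called in both. Across both factors, HCC1937+BRCA1 without COH29 read higher than HCC1937 with it for 7 of the 10 genes, by a rule that 21.9% of all genes passed. The other 3 were CDK1, CDC25C and WEE1, whose differences were -0.09, 0.09 and -0.07 (limma adjusted p = 0.638, 0.508 and 0.601).

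**Figure D4:**
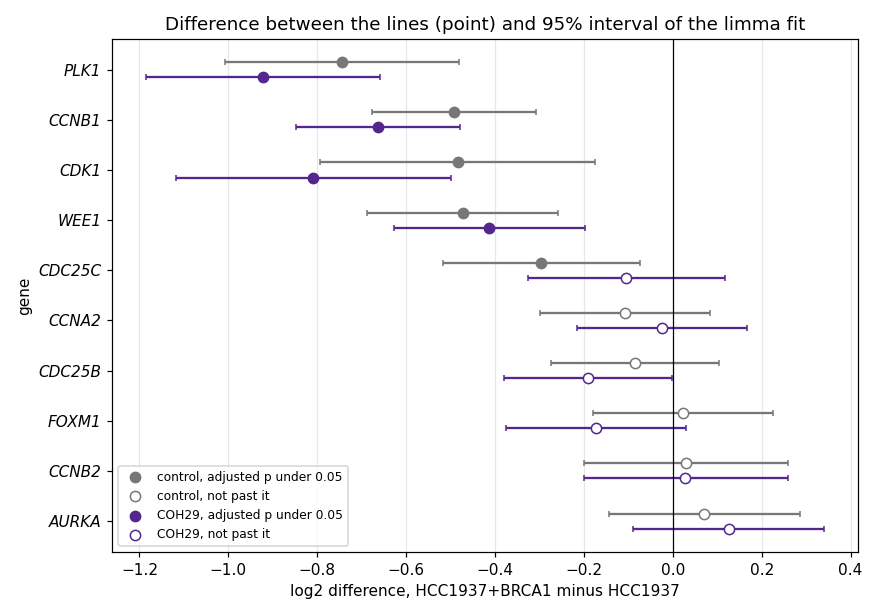
Log2 difference between the lines, HCC1937+BRCA1 minus HCC1937 (x axis), of the 10 genes (y axis) in control (grey) and under COH29 (purple), with 95% intervals of the limma fit and open points for differences not past an adjusted p of 0.05. PLK1, CCNB1, CDK1 and WEE1 have intervals left of 0 in both conditions, while AURKA, CCNB2, CCNA2 and FOXM1 have intervals across 0 in both. The interval of CDC25B crosses 0 in control, and that of CDC25C under COH29.

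Other genes of mitotic entry were read from 6 lists chosen with earlier results of these data known. The partners and relatives of the 10 genes, which include the Aurora B complex, PLK1's activator BORA and other cyclins, numbered 24 measured genes. COH29 lowered 13 and raised 2 of them in HCC1937, and lowered 16 and raised 4 in HCC1937+BRCA1. Across all genes 10.2% rose in HCC1937 and 13.6% in HCC1937+BRCA1. The list medians were -0.34 and -0.50. CCNF, the cyclin of an SCF ubiquitin ligase, fell (-1.37 and -1.23), as did BUB1, a spindle checkpoint kinase gene (-1.19 and -1.15), and BORA (-0.98 and -1.43). PLK3, a stress-induced relative of PLK1, rose by 1.29 and 1.92 (limma adjusted p = 0.000123 and 8.37e-06). CDK7 also rose in both lines, by 0.76 and 0.75 (limma adjusted p = 0.000907 and 0.000562). PKMYT1, the other kinase gene that inhibits CDK1, was at -0.29 (adjusted p = 0.112) in HCC1937 and fell (-0.52, 0.00809) in HCC1937+BRCA1, and CDC25A was at -0.15 (0.307) and fell (-0.37, 0.0178). Leaving out COH29 replicate 1, control replicate 1 or moderation made the HCC1937 count of 13 into 7, and leaving out control replicate 2 made it 8. The 4 higher in HCC1937+BRCA1 became 2 without its COH29 replicate 1 or control replicate 2.

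PP2A-B55 is a phosphatase that opposes CDK1, and Greatwall kinase restrains it. Of their 11 genes COH29 lowered 4 in HCC1937, lowered 3 in HCC1937+BRCA1 and raised 0 in either line. At an unadjusted p under 0.05 in limma 0 rose as well. The medians were -0.06 and -0.20, and 12.5% and 20.1% of all genes were lower. MASTL, the Greatwall gene, was at -0.03 and -0.23 (adjusted p = 0.861 and 0.076). ARPP19, a Greatwall substrate gene, fell (-0.41 and -0.38), and so did PPP2R2D, a B55 subunit gene (-0.31 and -0.58). The 4 in HCC1937 became 1 without COH29 replicate 1 or control replicate 1 and 0 without control replicate 2 of that line, and 2 with only the 4 arrays compared. The 3 in HCC1937+BRCA1 became 7 with a trended and robust fit and 5 without dim genes. Of the 14 genes of MuvB, B-MYB, DREAM and NF-Y, the factors of the promoter elements above, COH29 lowered 6 and raised 2 in HCC1937, and it lowered 8 and raised 3 in HCC1937+BRCA1, with medians of -0.18 and -0.40. E2F5 fell (-1.69 and -2.42), as did E2F4, the main E2F of DREAM (-0.41 and -0.87), and RBL1, which encodes the pocket protein p107 (-0.40 and -0.70). Of the MuvB subunit genes, LIN37 rose (0.56 and 0.55) and LIN9 fell (-0.46 and -0.77). LIN54 was at 0.26 (adjusted p = 0.0649) in HCC1937 and rose (0.55, 0.00126) in HCC1937+BRCA1. LIN52 and RBBP4 did not pass in either line. Of the NF-Y subunit genes, NFYA rose by 0.37 and 0.65, while NFYB fell (-0.62 and -0.89). NFYC was at -0.15 (adjusted p = 0.298) in HCC1937 and fell (-0.39, 0.0123) in HCC1937+BRCA1. MYBL2, the B-MYB gene, was at 0.07 and -0.08 (adjusted p = 0.616 and 0.471), a sign that differed between the lines with neither past the test. In HCC1937 the 6 became 3 without COH29 replicate 1 or either control array. The 2 became 0 without either COH29 array or control replicate 2, and 1 without control replicate 1 or moderation.

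The anaphase-promoting complex, which destroys the cyclins as mitosis ends, and its regulators had 10 of 20 genes lower in HCC1937 and 9 in HCC1937+BRCA1, and 0 higher (0 at an unadjusted p under 0.05 in limma). The medians were -0.30 and -0.32, and 12.5% and 20.1% of all genes were lower. The activator gene CDC20 fell (-1.03 and -1.01), as did the ubiquitin-conjugating enzyme gene UBE2C (-1.01 and -1.43) and the core subunit genes CDC23 (-1.04 and -1.40) and CDC27 (-0.85 and -1.14). With COH29 replicate 1 or control replicate 2 of HCC1937 left out the 10 became 4, and with control replicate 1 left out 5. Genes that restrain CDC25 and CDK1 in G2 moved both ways. In HCC1937 the drug raised 5 of 16 and lowered 3, and in HCC1937+BRCA1 it raised 4 and lowered 5. The medians were 0.04 and -0.12. CDKN1A, the gene of the CDK inhibitor p21, read 9.27 and 8.97 in HCC1937 control and 10.52 and 10.54 with COH29, and rose by 1.41 there and by 1.62 in HCC1937+BRCA1. GADD45A, which can dissociate CDK1 from cyclin B1, rose by 1.03 and 1.57, and GADD45B by 1.18 and 1.88. ATM, a damage kinase gene, fell (-0.44 and -0.68), while CHEK1, the kinase gene that acts on CDC25, was at 0.15 and -0.11 (adjusted p = 0.219 and 0.339). The 5 higher in HCC1937 became 3 without control replicate 1 or moderation, and the 3 lower became 1 with COH29 replicate 1 left out and 0 with control replicate 2 left out. The 5 lower in HCC1937+BRCA1 became 3 without COH29 replicate 1, control replicate 2 or with arrays shifted to one median, and 2 without COH29 replicate 2 or control replicate 1.

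Of 21 genes of the earlier G1/S step COH29 lowered 5 and raised 3 in HCC1937, and it lowered 7 and raised 3 in HCC1937+BRCA1, with medians of -0.02 and -0.14. The cyclin E genes CCNE1 and CCNE2, named after their values were seen, rose, by 0.41 and 0.34 and by 0.57 and 0.54, and CDC6, a replication licensing gene, rose by 0.74 and 0.69. CDC7, an origin kinase gene, fell (-1.43 and -1.86), and so did CDK6 (-0.62 and -0.93) and E2F2 (-0.33 and -0.59). The 5 in HCC1937 became 2 without COH29 replicate 1 or control replicate 1, and 3 without control replicate 2 or with arrays shifted to one median. Among markers of proliferation, MKI67 (-0.78 and -1.03, SE 0.10) and TOP2A (-0.74 and -1.12, SE 0.11) fell beside the 10 genes. PCNA, the replication clamp gene, was at 0.17 and 0.10 (adjusted p = 0.198 and 0.411). Between the lines, TOP2A was lower in HCC1937+BRCA1 in control (-0.43, adjusted p = 0.0144) and under COH29 (-0.81, 0.000494), beside the lower PLK1 and CCNB1 of that line. MKI67 was at -0.24 in control (0.123) and lower under COH29 (-0.49, 0.0059). The part of cell cycle distribution in these results was not tested.

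**Figure D5:**
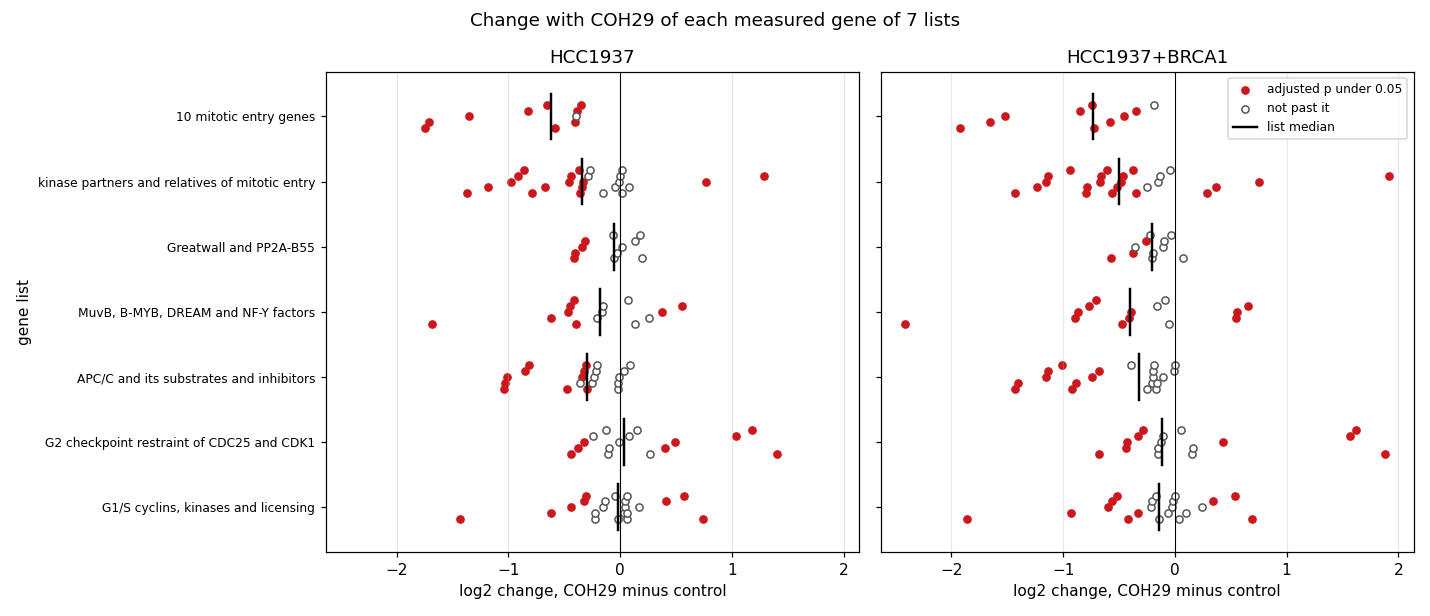
Log2 change with COH29 (x axis) of each measured gene of 7 lists (y axis), in HCC1937 (left) and HCC1937+BRCA1 (right), with filled points for an adjusted p under 0.05 and a black bar at each list median. The medians of the 10 mitotic entry genes, -0.62 and -0.73, lie left of those of the 6 other lists, which run from -0.34 to 0.04 and from -0.50 to -0.12.

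Likeness to the 10 genes was measured as the root mean square difference, over the 8 arrays, between a gene's values centred on its own mean and the mean centred profile of the 10. Among 18407 other genes the 5 nearest were FGD3 (0.06), ZHX2 (0.07), BTN3A1 (0.07), PIGB (0.07) and NCAPH (0.07), with Pearson's r from 0.9885 to 0.9964 as a description over arrays that share their groups. NCAPH encodes a subunit of condensin, which compacts mitotic chromosomes. Its changes with COH29 were -0.85 and -0.94. Of the 10 genes themselves CCNA2 (0.13) and FOXM1 (0.13) were nearest to their common profile, and PLK1 (0.56) and AURKA (0.45) farthest. PLK1 kept the shape of the profile (r = 0.9884) with larger steps, while CDK1 and WEE1 had the lowest r, 0.8232 and 0.8305. Each of the 10 is itself part of that profile, so their values are not comparable with those of the other genes.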

How the data were processed

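The deposited table holds log2 intensities of 33297 probe sets on 8 arrays, and RMA and Partek are named, with no version, in the submitters' processing notes. RMA includes background correction and quantile normalization before probes are summarised as log2 values, which can shrink differences. The table was used as it stands, with no detection p. Precision is limited by having 2 arrays a group. The array annotation gave 19460 probe sets with 1 gene, 1754 with several and 12083 with none. The first kind gave 18417 genes, 769 of them with several probe sets. A group-means model over all 8 arrays was fitted with limma 3.58.1 in R 4.3.3 (4 residual degrees of freedom), and p-values were Benjamini-Hochberg adjusted over all genes. Promoters were searched and figures drawn with Python 3.11.15, pandas 2.3.3 and matplotlib 3.10.9. The fit was tested on simulated data.

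The members, gene lists, named-gene rule and tests were chosen with earlier results of these data known. Named were the 10 genes, BRCA1, CDKN1A, MKI67, TOP2A and PCNA, up to 4 called genes per list with the smallest p in either COH29 comparison, and the 5 genes nearest in profile. PKMYT1, CDC25A, CDK7, MASTL, MYBL2, LIN9, LIN37, LIN52, LIN54, RBBP4, CHEK1, NFYB, NFYC, CCNE1 and CCNE2 were added after their values were seen. So were the marker genes given with group values, changes or differences. Alternatives were a low filter at the 30th percentile, median shift, cyclic loess, trended and robust or no moderation, a minimum log2 change of 1, replicate block, mean of probe sets, fits on only the 4 arrays of a comparison, and fits with each array omitted in turn. A crossed block and the other WEE1 probe sets were added after seeing the data. Where an array was left out, the lone array of its group was assumed to vary like the other groups. Scanner files and scan dates were not used here.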

Additional observations from a re-analysis of the deposited data

How the results depend on the processing

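All 20 changes of the 10 genes with COH29 kept their direction in every alternative run, with values from -2.09 to -0.12. With a minimum log2 change of 1, the genes called lower were 3 in HCC1937 and 3 in HCC1937+BRCA1, and the line comparisons had 0 in control and 0 under COH29. With no moderation the COH29 calls of CDC25C (adjusted p = 0.0732) and WEE1 (0.0543) in HCC1937 were lost. So were those of CDK1 (0.0511) and WEE1 (0.0563) in HCC1937+BRCA1. Without moderation the control comparison of the lines had 3 in place of 5, and leaving out single arrays gave 3 to 5. Over single arrays left out, 6 to 10 genes fell in HCC1937, 8 to 9 in HCC1937+BRCA1 and 3 to 4 were lower under COH29. Of 850 alternative values of single changes 19 turned sign, all of them far from the threshold (smallest adjusted p 0.72). With arrays shifted to one median or cyclic loess, the line difference of CCNA2 under COH29 was 0.0069 and 0.0333, and the CCNB2 difference of effects 0.0344 and 0.069. With single arrays left out, these ran from -0.0672 to 0.0189 for CCNA2 and from -0.11 to 0.11 for CCNB2. The line difference in control ran from -0.0145 to 0.16 for AURKA and from -0.0783 to 0.14 for CCNB2. Under COH29 it ran from -0.0576 to 0.11 for CCNB2 and from -0.23 to 0.0161 for CDC25C. The difference of effects ran from -0.0296 to 0.14 for AURKA and from -0.0292 to 0.15 for WEE1.

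Arrays with the same replicate number did not deviate together in all pairs of groups (r from -0.204 to 0.26). The highest r was between the control and COH29 arrays of HCC1937+BRCA1, and whether these share more than a number was not tested. With the replicate number as a block, 9 genes fell in each line, 4 were lower in HCC1937+BRCA1 control (CDC25C at adjusted p = 0.0649) and 4 under COH29. With the numbers crossed between the lines, these were 10, 9, 5 and 4. In the 10 genes, every call that leaving out a single array ended was of a change under 0.5 on the log2 scale.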

Other observations

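With the 7 matched members left out, 14232 tested genes had a window in the promoter table. Of these, 13.5% fell with COH29 in HCC1937 and 21.7% in HCC1937+BRCA1. Among them 302 genes held TTTGAA and at least 2 CCAAT in 1 window. COH29 lowered 67 (22.2%) and raised 26 of the 302 in HCC1937, and lowered 102 (33.8%) and raised 31 in HCC1937+BRCA1. Their median changes were -0.04 and -0.09, beside 0.03 and 0.02 for all genes with a window. Of the 2236 genes with TTTGAA in a window, whatever their CCAAT, 16.7% and 25.1% fell, and of the 2111 with at least 2 CCAAT 14.5% and 23.0% fell. The genes of these sets overlap, and the differences between the sets were not tested.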
